A study of Mus musculus with 6 samples.

Results

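The genes described here are the 7 mouse inhibitors of the cyclin-dependent kinases (CDKs): the INK4 family of Cdkn2a, Cdkn2b, Cdkn2c and Cdkn2d, and the CIP/KIP family of Cdkn1a, Cdkn1b and Cdkn1c. They were chosen by family membership and not by their values, although earlier results of these data were known. They are 7 of the 36528 gene models counted in each library. All 7 passed the filter on low counts. The measurements are polyA RNA-seq of primary mouse melanocytes with skin as the tissue of origin, in 3 libraries labelled BAP1 KO, a knockout of the nuclear deubiquitinase BAP1, and 3 labelled WT. As to the knockout allele, how it was induced, the age and strain of the animals, and whether the 3 libraries of a group came from separate cultures or animals, the labels are silent. The p-values below therefore measure the spread between these libraries, which may be technical.

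CDK inhibitors are small proteins that hold the cell cycle back. INK4 proteins bind CDK4 and CDK6 and keep them from pairing with D-type cyclins, whereas CIP/KIP proteins bind assembled cyclin-CDK complexes, with those of CDK2 as the classical target. The retinoblastoma family of pocket proteins is the shared endpoint, since these proteins restrain E2F factors until the kinases phosphorylate them. In melanocytes, Cdkn2a and Cdkn2b are best known from the senescence of naevi and as genes lost in melanoma.

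The libraries held 33987690 to 43773769 counted reads. Bap1 itself (gene ID 104416, chr14:31251352-31259930 on GRCm38) was read at 73.6, 77.3 and 72.5 CPM (reads of a gene scaled to library size) in the BAP1 KO-labelled set and at 55.7, 55.6 and 55.8 CPM in the WT-labelled set. It was higher in the BAP1 KO-labelled set, with a log2 fold change of 0.42 ± 0.042 (SE). The counts pool every exon, so they do not show whether an exon was lost, and every direction below rests on the labels alone. Cell type markers also differed between the labels. The 12 melanocyte markers were all higher in the BAP1 KO-labelled libraries (63560 to 64380 CPM in sum against 6716 to 6794). All 19 tested keratinocyte markers were lower (863 to 895 CPM against 12530 to 12690, Krt1 not tested). Of 14 fibroblast markers 13 were lower and 1 higher (159 to 171 against 1182 to 1218 CPM). Tyrp1 stood at 32810 CPM in the BAP1 KO-labelled set and 2797 CPM in the WT-labelled set, and Krt14 at 96.5 and 2001 CPM. Of 8 tested immune markers 5 were higher and 3 lower, and the list summed to 231 to 239 against 68.4 to 75.4 CPM, with Cd3e at 0 in every library labelled BAP1 KO. Of 10 Schwann and glial markers 6 were higher and 3 lower (2730 to 2802 against 1313 to 1408 CPM), and of 8 tested endothelial and mural markers 2 were higher and 6 lower (191 to 204 against 598 to 641 CPM). In bulk RNA, fewer cells of a type and less RNA per cell cannot be told apart. The part of these markers in the results below was not tested.

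Both families were split between the labels. Cdkn2a, Cdkn2b, Cdkn1a and Cdkn1c fell in the BAP1 KO-labelled libraries, and Cdkn1b, Cdkn2c and Cdkn2d rose. The largest of the 7 differences were in the 2 neighbouring genes Cdkn2a and Cdkn2b. All 7 passed edgeR's quasi-likelihood test at a Benjamini-Hochberg adjusted p under 0.05, and in all 7 the 2 sets of libraries did not overlap. Most genes did so in this comparison: of 17121 genes tested, 81.5% were called (39.4% higher, 42.1% lower), and 82.7% had no overlap between the groups (40.1% higher, 42.6% lower). With so many genes called, the 7 calls do not set the inhibitors apart, and their sizes and directions carry the description. The median log2 fold change of all tested genes was -0.03 and the median absolute value 0.68. The median of the 7 inhibitors was -0.64. Below, ± is the SE on log2 fold changes and the SD over 3 libraries on levels and shares.

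**Figure D1:**
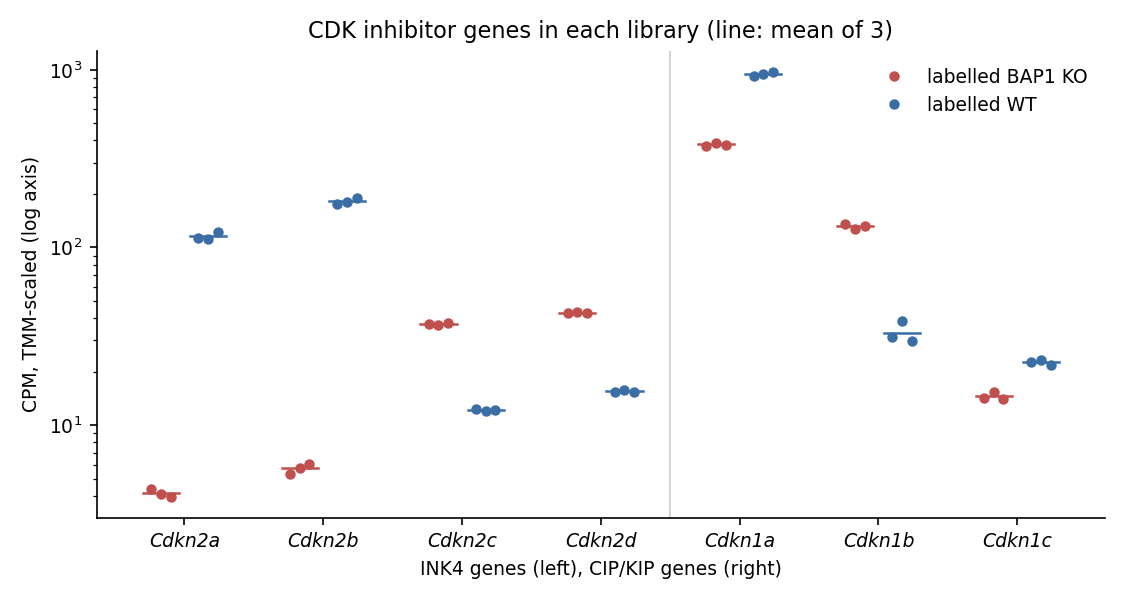
Level of each inhibitor gene in each library (points; TMM-scaled CPM, logarithmic vertical axis), with the mean of 3 libraries as a short line; red is labelled BAP1 KO and blue is labelled WT. For every gene the red and blue points are apart, with Cdkn2a and Cdkn2b near 4 to 6 CPM in red against 112 to 189 CPM in blue.

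Among the INK4 genes, Cdkn2a encodes 2 tumour suppressors that share exons but not a reading frame: p16, which binds CDK4 and CDK6, and p19ARF, which holds MDM2 away from p53. Cdkn2a (gene ID 12578, chr4:89274473-89294619) stood at 4.39, 4.08 and 3.96 CPM in the BAP1 KO-labelled libraries and at 112, 112 and 122 CPM in the WT-labelled ones. Every library labelled BAP1 KO was far below every library labelled WT. The means were 4.14 ± 0.224 and 115.5 ± 5.93 CPM (SD, n = 3), a log2 fold change of -4.80 ± 0.065 (SE), or 27.9-fold lower (edgeR adjusted p = 4.42e-13). The low level was still a count of 142 to 174 reads a library. Of all tested genes, 293 (1.71%) had a lower log2 fold change. The count is of the gene, so transcripts of p16 and p19ARF could not be separated.

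Cdkn2b, which encodes p15, the INK4 protein known as a target of TGF-β signalling, lies 11.7 kb from Cdkn2a (gene ID 12579, chr4:89306289-89311032). It was measured at 5.31, 5.75 and 6.05 CPM in the BAP1 KO-labelled set and at 176, 180 and 189 CPM in the WT-labelled set. The separation was as wide as for Cdkn2a, with no library of one label near those of the other. The means of 5.70 ± 0.372 and 182 ± 6.90 CPM gave a log2 fold change of -4.99 ± 0.060, or 31.9-fold lower (edgeR adjusted p = 2.43e-13), and 247 tested genes (1.44%) had a lower one. The 19 tested keratinocyte markers, also fell, by log2 fold changes from -6.94 (Ivl) to -0.63 (Krt10) with a median of -4.09, and their part in the fall of both genes was not tested.

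The stretches before the RefSeq start sites of these 2 genes (GRCm38.p6) are shown because both genes fell together and each start carries a different motif; Cdkn2a has a start known for p19ARF and a downstream one known for p16. Capitals mark the motifs found by letter search on both strands: the GC box GGGCGG, the E2F motif TTTNGCGC and the cAMP response element TGACGTCA. Bases annotated as UTR were trimmed from the 3′ ends, so the p19ARF and Cdkn2b stretches end 35 and 8 bases before the start. All 3 are from the minus strand.
Cdkn2a, p19ARF start, chr4:89294654-89294869: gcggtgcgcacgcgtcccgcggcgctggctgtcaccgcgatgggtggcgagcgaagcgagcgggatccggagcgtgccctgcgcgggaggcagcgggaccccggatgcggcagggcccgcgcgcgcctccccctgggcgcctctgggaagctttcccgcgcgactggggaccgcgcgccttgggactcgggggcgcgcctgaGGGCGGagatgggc
Cdkn2a, p16 start, chr4:89282193-89282442: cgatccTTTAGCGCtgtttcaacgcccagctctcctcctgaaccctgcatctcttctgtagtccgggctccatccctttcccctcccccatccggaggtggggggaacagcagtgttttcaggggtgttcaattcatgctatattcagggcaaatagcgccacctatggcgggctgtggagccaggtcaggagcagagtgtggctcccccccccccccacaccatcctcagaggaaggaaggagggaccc
Cdkn2b, chr4:89311040-89311282: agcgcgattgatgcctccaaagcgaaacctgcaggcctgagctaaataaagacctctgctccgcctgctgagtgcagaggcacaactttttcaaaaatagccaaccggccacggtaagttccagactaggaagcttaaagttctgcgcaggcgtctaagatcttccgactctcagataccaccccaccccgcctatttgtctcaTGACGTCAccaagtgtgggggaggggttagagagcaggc
Over the full 250 bases the p19ARF start held 40 CpG dinucleotides, more than 98.7% of the 32851 windows in the RefSeq table, the p16 start held 7 and the Cdkn2b start 12, against a median of 6. The E2F motif lies 244 to 237 bases before the p16 start and is in 1.13% of all windows. The cAMP response element lies 46 to 39 bases before the Cdkn2b start and is in 1.55% of them. The GC box, in 32.7% of windows, was found at the p19ARF start and at neither of the others. These are letter matches and not evidence of binding.

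Cdkn2c, which encodes p18, went the other way (gene ID 12580, chr4:109660876-109666756). It was read at 37.2, 36.6 and 37.6 CPM in the BAP1 KO-labelled set and at 12.3, 11.99 and 12.1 CPM in the WT-labelled set. All 3 libraries labelled BAP1 KO lay well above the others. The means were 37.1 ± 0.542 and 12.2 ± 0.175 CPM, a log2 fold change of 1.61 ± 0.050, or 3.05-fold higher (edgeR adjusted p = 2.06e-10). Cdkn2d, which encodes p19INK4d, an inhibitor unrelated in sequence to p19ARF, showed the same direction (gene ID 12581, chr9:21288459-21291421). Its levels were 42.7, 43.2 and 42.5 CPM against 15.4, 15.7 and 15.4 CPM. The libraries of each label lay close together and apart from the other label. With means of 42.8 ± 0.332 and 15.5 ± 0.175 CPM, Cdkn2d was 2.76-fold higher (log2 1.47 ± 0.047, edgeR adjusted p = 2.50e-10). On the log2 scale 23.3% of tested genes differed by more than Cdkn2c and 25.5% by more than Cdkn2d, in either direction.

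In the CIP/KIP family, Cdkn1a encodes p21, the inhibitor best known as a transcriptional target of p53 (gene ID 12575, chr17:29090979-29100722). It was read at 373, 387 and 380 CPM in the BAP1 KO-labelled libraries and at 924, 942 and 972 CPM in the WT-labelled ones. The highest library labelled BAP1 KO was below the lowest labelled WT by more than the range within either label. The means of 380.0 ± 6.84 and 946 ± 24.4 CPM gave a log2 fold change of -1.32 ± 0.035, or 2.49-fold lower (edgeR adjusted p = 5.08e-11). Of the exon bases of Cdkn1a, 7.68% overlap another annotated gene.

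Cdkn1b encodes p27, which accumulates in resting cells and is removed through the ubiquitin ligase subunit SKP2 (gene ID 12576, chr6:134920401-134925525). Its levels were 136, 128 and 132 CPM in the BAP1 KO-labelled set and 31.3, 38.4 and 29.9 CPM in the WT-labelled set. The WT-labelled library at 38.4 CPM was the highest of its group and still far below the other label. The means of 132 ± 4.28 and 33.2 ± 4.57 CPM made it 3.99-fold higher (log2 1.99 ± 0.081, edgeR adjusted p = 1.90e-09), the largest rise among the 7.

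Cdkn1c, an imprinted gene, encodes p57 (gene ID 12577, chr7:143458339-143461059). It stood at 14.2, 15.4 and 14.1 CPM in the BAP1 KO-labelled set and at 22.7, 23.4 and 21.9 CPM in the WT-labelled set. The groups did not overlap, but the difference was the smallest of the 7 on the log2 scale. The means were 14.6 ± 0.722 and 22.6 ± 0.726 CPM, a log2 fold change of -0.64 ± 0.060 or 1.55-fold lower (edgeR adjusted p = 2.47e-06). Over the tested genes 52.2% differed by more, so the size is an ordinary one in this comparison, and against a minimum log2 fold change of 1 (glmTreat) Cdkn1c was not called, with an edgeR adjusted p of 1.0. Its value is also uncertain because 30.7% of its exon bases overlap the gene model Gm44732 and the library kit does not mark strand. For Cdkn2a, Cdkn2b, Cdkn2c, Cdkn2d and Cdkn1b no exon base overlapped another gene and no 50-base stretch was shared with another transcript.

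**Figure D2:**
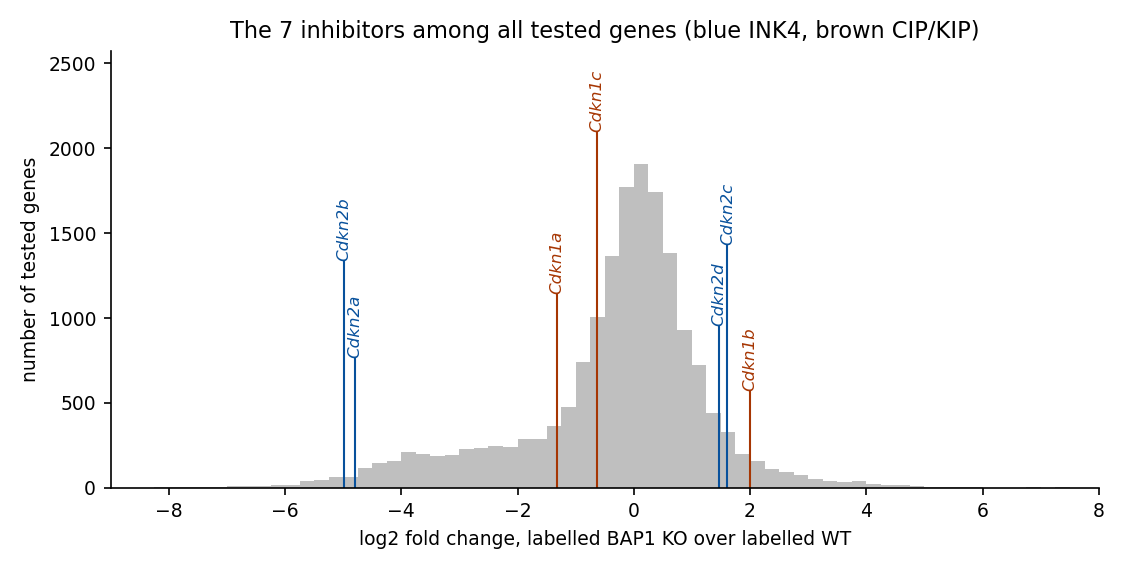
Histogram of the log2 fold changes of all 17121 tested genes (grey; number of genes per bin), with the 7 inhibitors as vertical lines, blue for INK4 and brown for CIP/KIP; line height has no meaning. Cdkn2a and Cdkn2b lie in the far left tail at -4.80 and -4.99, and Cdkn1c lies inside the central mass at -0.64.

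The stretches before the upstream RefSeq start of Cdkn1a and the start of Cdkn1b are shown because these 2 CIP/KIP genes moved in opposite directions. Capitals mark a p53 site with at most 1 mismatch, 2 half-sites with no spacer, in Cdkn1a, and the GC box GGGCGG and the CCAAT box in Cdkn1b. Both are 250 bases from the plus strand and end at the start site.
Cdkn1a, upstream start, chr17:29090729-29090978: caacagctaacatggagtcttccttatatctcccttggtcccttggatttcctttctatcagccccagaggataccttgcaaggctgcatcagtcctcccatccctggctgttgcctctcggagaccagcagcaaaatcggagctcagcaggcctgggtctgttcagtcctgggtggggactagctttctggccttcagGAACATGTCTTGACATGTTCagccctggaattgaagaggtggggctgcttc
Cdkn1b, chr6:134920151-134920400: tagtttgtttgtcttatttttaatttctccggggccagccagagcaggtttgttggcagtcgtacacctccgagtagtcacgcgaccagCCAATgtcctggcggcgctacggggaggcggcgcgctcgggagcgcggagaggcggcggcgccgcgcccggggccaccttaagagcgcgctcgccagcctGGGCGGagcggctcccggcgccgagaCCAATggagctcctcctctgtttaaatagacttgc
The p53 site lies 51 to 32 bases before that start, and 25 of 32851 windows (0.0761%) hold such a site. The search with 1 mismatch was chosen after the full consensus gave no match there. The Cdkn1b stretch holds 1 GC box and 2 CCAAT boxes, and CCAAT is in 33.8% of windows. It has 28 CpG dinucleotides where the upstream Cdkn1a start has 2. Among the windows not shown, the downstream Cdkn1a start held 2 GC boxes, the upstream Cdkn2c start 3, and the Cdkn2d start 3 with 1 CCAAT box. None of the inhibitor windows held CACGTG (6.02% of windows), the M-box TCATGTG (3.25%), TATAAA (12.4%), TGANTCA (6.75%) or GTAAACA (3.17%). The table has no entry for Cdkn1c.

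Levels of different genes can be compared only per length, for which the authors' normalized RPKM was used. Cdkn1a had the highest normalized RPKM of the 7 in every library, at 177 ± 2.74 in the BAP1 KO-labelled set and 431 ± 15.2 in the WT-labelled set. Below it the order of levels changed. Under the WT label Cdkn2b (120.5 ± 5.65) and Cdkn2a (93.9 ± 5.98) came next, followed by Cdkn1c (9.95 ± 0.179) and Cdkn2d (9.82 ± 0.070), whose ranges overlapped, then Cdkn1b (6.61 ± 0.805) and Cdkn2c (4.93 ± 0.130). Under the BAP1 KO label Cdkn2d (27.7 ± 0.208) and Cdkn1b (26.9 ± 0.946) followed Cdkn1a with overlapping ranges. Cdkn2c (15.4 ± 0.230) and Cdkn1c (6.54 ± 0.317) came after them, and Cdkn2b (3.86 ± 0.240) and Cdkn2a (3.44 ± 0.197) were last, again with overlapping ranges. The genes ranked just below Cdkn1a in the WT-labelled set were thus the 2 lowest in the BAP1 KO-labelled set.

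Summed per length, the 7 inhibitors stood at 259, 263 and 260 normalized RPKM in the BAP1 KO-labelled libraries and at 662, 661 and 707 in the WT-labelled ones. The sum was 2.60-fold larger in the WT-labelled set. The INK4 sum differed by more, 50.4 ± 0.0838 against 229 ± 11.7 (4.55-fold), than the CIP/KIP sum, 210.3 ± 2.12 against 448 ± 14.5 (2.13-fold). INK4 genes made up 19.5%, 19.1% and 19.4% of the inhibitor level in the BAP1 KO-labelled set and 33.7%, 33.5% and 34.3% in the WT-labelled set. The groups did not overlap, with a difference of -14.5 percentage points, and the exact two-sided permutation test gave p = 0.1, the smallest that 3 against 3 libraries allow. Within INK4, Cdkn2a and Cdkn2b together held 93.6% ± 0.271 of the level in the WT-labelled set and 14.5% ± 0.108 in the BAP1 KO-labelled set. Cdkn2c and Cdkn2d together stood at 14.8 ± 0.167 normalized RPKM in the WT-labelled set and 43.1 ± 0.0802 in the other, a gain that is small beside the 214 normalized RPKM of Cdkn2a and Cdkn2b in the WT-labelled set. The Cdkn1a share of the 7-gene sum was 67.8% ± 0.537 in the BAP1 KO-labelled set and 63.7% ± 0.212 in the WT-labelled set, while Cdkn1b went from 0.980% in the WT-labelled set to 10.3% in the BAP1 KO-labelled set.

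**Figure D3:**
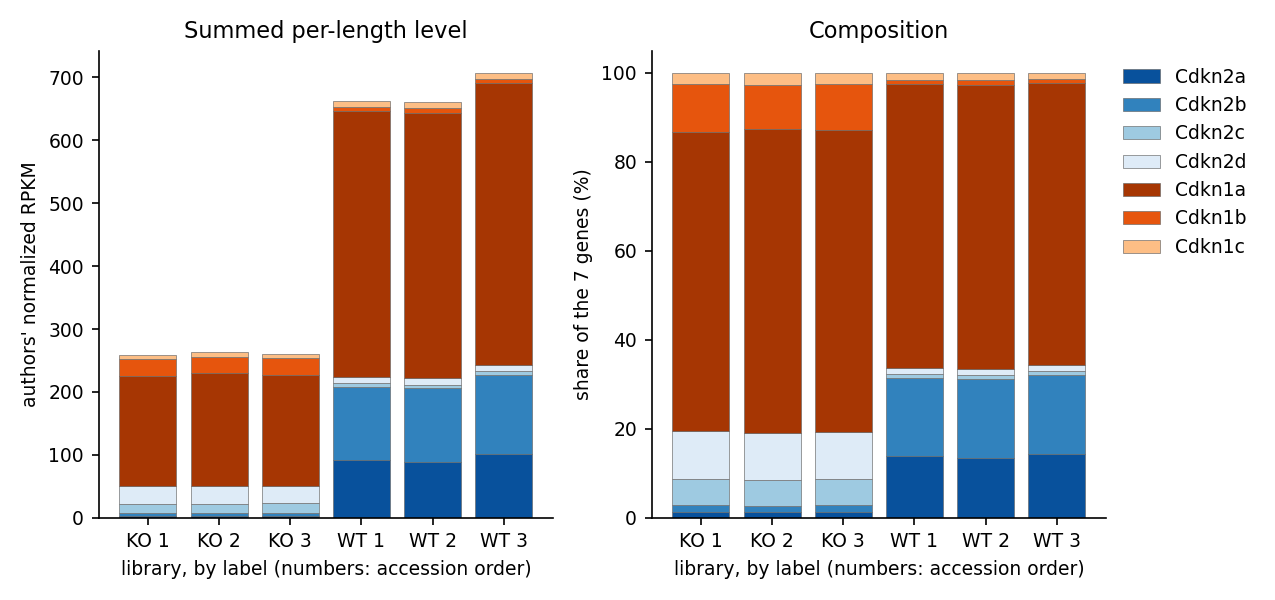
Summed level of the 7 inhibitors in each library (left, authors' normalized RPKM) and the share of each gene in that sum (right, percent), with INK4 genes in blue shades and CIP/KIP genes in brown shades. Cdkn1a fills 63.5% to 68.4% of every bar, and the dark blue segments of Cdkn2a and Cdkn2b, 13.9% and 17.8% on average in the WT-labelled set, shrink to 1.32% and 1.48% in the BAP1 KO-labelled set.

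Ratios taken inside a library do not depend on how libraries are scaled. The log2 ratio of Cdkn2b to Cdkn2c was 4.61 ± 0.0669 in the WT-labelled set and -2.00 ± 0.0897 in the BAP1 KO-labelled set, so the order of these 2 INK4 genes turned over. The log2 ratio of Cdkn1a to Cdkn1b was 6.03 ± 0.208 and 2.71 ± 0.0727, so p21 transcripts remained the more abundant in both sets by a narrower margin. For the adjacent genes Cdkn2a and Cdkn2b the log2 ratio was -0.35, -0.40 and -0.34 in the WT-labelled libraries and 0.02, -0.20 and -0.32 in the BAP1 KO-labelled ones. That difference of 0.20 was about the size of the spread in the BAP1 KO-labelled set (SD 0.172), and the values nearly touched. Without the BAP1 KO-labelled library at 0.02 it was 0.10, and without any 1 of the WT-labelled libraries the exact permutation p was 0.2. Each of the 3 ratios gave an exact two-sided permutation p of 0.1, the smallest possible, and 0.1 after Benjamini-Hochberg adjustment over the 3.

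The genes around the inhibitors were taken from lists grouped by role, which were chosen with earlier results of these data known. Of 146 such genes 144 were tested, and 82 rose and 49 fell (median log2 fold change 0.33). That is 91.0% in all, beside 81.5% of all genes tested (39.4% higher, 42.1% lower). Of the 3 D-type cyclins and the kinases Cdk4 and Cdk6, which the INK4 proteins bind, 4 of 5 genes fell and 1 rose (median -0.57). Ccnd1, the cyclin of early G1, fell from 1235 ± 31.6 to 120 ± 3.19 CPM (log2 -3.37), although 23.4% of its exon bases overlap another gene. Cdk6 fell by 2.74 and Cdk4, with 19.7% of its exon bases in another gene, by 0.49 on the log2 scale. Ccnd3 was the one that rose, from 76.9 ± 2.16 to 425 ± 10.4 CPM (log2 2.47). Of 15 E-, A- and B-type cyclins and their kinases and phosphatases 10 rose, 3 fell and 2 were not called (median 0.63). Cdk2, the main target of p21 and p27, had the largest rise, from 132 ± 2.79 to 899 ± 7.83 CPM (log2 2.77). Its span (chr10:128697938-128705051) lies inside the RefSeq span of the melanosome gene Pmel, which went from 1310 to 8132 CPM. Annotated Pmel exons cover 0.547% of the Cdk2 exon bases, and the part of Pmel transcripts in the Cdk2 count was not tested. Ccna1 (log2 2.68, under 1 CPM in both sets) and the mitotic cyclin Ccnb2 (1.44) came next.

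Of the 13 pocket proteins and E2F factors 8 rose and 5 fell (median 0.39). The pocket protein Rbl2 (log2 1.53, with 17.1% of its 50-base stretches shared with another gene), the E2F partner Tfdp2 (1.05) and E2f2 (0.89) rose most. Genes of S phase and of G2 and M phase were nearly all on one side. Of 24, 23 rose (median 0.82), where 39.4% of all tested genes rose and 42.1% fell. The mitotic genes Cenpf (1.78) and Mki67 (1.53) and the DNA polymerase gene Pola1 (1.21) rose most. The replicative helicase gene Mcm7 alone fell (-0.34). Another gene overlaps 12.6% of its exon bases, and 23.3% of its 50-base stretches are shared with other transcripts. Of 14 genes listed around the degradation of inhibitors, not all of which act on an inhibitor directly, 8 rose, 5 fell and 1 was not called (median 0.24). Pcna, the DNA clamp on which p21 is destroyed, rose by 0.91 (log2), the ligase subunit Btrc rose by 0.81, and Fbxw7, a ligase subunit for cyclin E, fell by 0.76. Pcna shares 19.1% of its 50-base stretches with other transcripts, a pseudogene first among them.

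**Figure D4:**
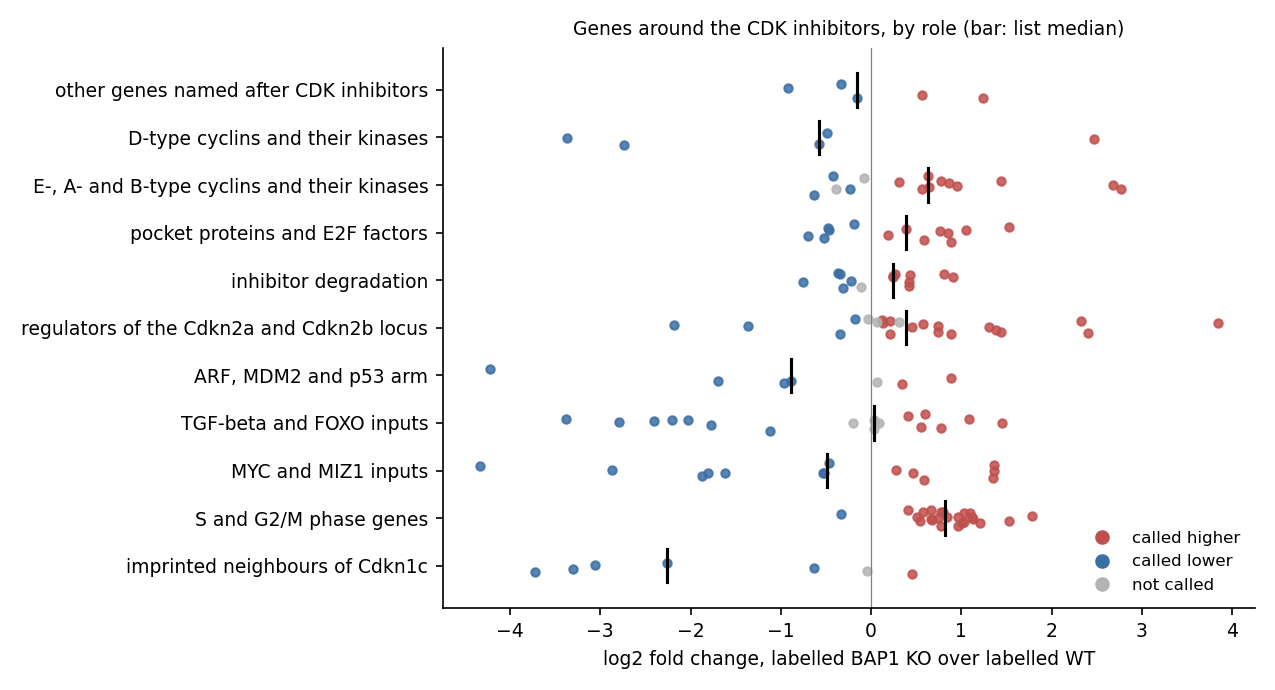
Log2 fold change (labelled BAP1 KO over labelled WT) of every tested gene in the lists around the inhibitors, one point a gene, coloured by call, with the list median as a black bar. The S and G2/M phase genes sit to the right of 0 except 1, and the D-type cyclins and kinases to the left except 1.

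Upstream of Cdkn2a and Cdkn2b, 22 known regulators of that locus were listed, among them Polycomb genes, which silence it, and ID, ETS and T-box factors. Of these 15 rose, 4 fell and 3 were not called (median 0.38). Over all tested genes 39.4% rose and 42.1% fell. The list joins genes of unlike roles, so its counts give no direction for the locus. Id2, an inhibitor of helix-loop-helix activators, rose from 26.8 ± 1.86 to 384 ± 6.44 CPM (log2 3.84). The T-box repressor Tbx2 rose from 73.5 ± 5.65 to 389 ± 5.09 CPM (2.40), and Mitf, the melanocyte lineage factor and also one of the melanocyte markers, from 52.3 ± 5.66 to 262 ± 3.93 CPM (2.32). The T-box gene Tbx3 (-1.36) and the ETS gene Ets2 (-2.18) were among the 4 that fell. In the arm between p19ARF and Cdkn1a, 7 of 8 genes were tested (Trp73 was not), and 2 rose, 4 fell and 1 was not called (median -0.88). Trp63 (-4.23), which is also on the keratinocyte list, fell most. Mdm2, the p53 ligase that p19ARF restrains, fell by 1.69 and Trp53 itself by 0.97. Thus Trp53, Mdm2 and Cdkn1a were all lower in the BAP1 KO-labelled set.

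TGF-β ligands, SMADs and FOXO factors are inputs to Cdkn2b, Cdkn1a and Cdkn1b. Of 18 such genes 6 rose, 7 fell and 5 were not called (median 0.03). The ligands Tgfb3 (-3.38) and Tgfb2 (-2.80) and the factor Foxo6 (-2.41) fell most. MYC with MIZ1 can repress Cdkn2b and Cdkn1a. Of 14 genes of the MYC network and of promoter factors beside it 6 rose and 8 fell (median -0.49). Mycl (-4.34), Myc (-2.87) and Mycn (-1.87) all fell, Myc from 119 ± 6.19 to 16.3 ± 0.658 CPM. Nothing in these counts ties the change of an input to that of an inhibitor.

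Beside the inhibitors on the chromosome, the 2 nearest tested genes on each side were read from the same fit. Of 25 such neighbours other than inhibitors 9 rose, 11 fell and 5 were not called, which is close to the background over all tested genes (39.4% higher, 42.1% lower). Around Cdkn2a and Cdkn2b, the methionine salvage gene Mtap (145 to 63.4 CPM, log2 -1.19), Gm12602 (-3.21), Dmrta1 (-4.60) and Gm12669 (-1.21) all fell. Gm12610, whose span covers Cdkn2b, was not called (-0.56, edgeR adjusted p = 0.0768). The fall was therefore 27.9-fold and 31.9-fold at the 2 inhibitors and 2.29-fold at Mtap, 93.4 kb away. Dmrta1, 377.2 kb away, was 24.3-fold lower at a low level (5.13 to 0.209 CPM). Gm12602 lies 146.2 kb from Cdkn2a, and Gm12669 is as far as 2494.5 kb from Cdkn2b. The Gm12669 count is also uncertain, since 77.3% of its 50-base stretches occur in another transcript.

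All 4 neighbours of Cdkn1b rose, in a comparison where 39.4% of all tested genes did: Gpr19 (1.36), 2810454H06Rik (1.21), Lockd (1.11), a long noncoding RNA beside Cdkn1b, and Apold1 (0.53), each by less than Cdkn1b. Gpr19 and 2810454H06Rik overlap each other, with 9.25% and 8.58% of their exon bases in another gene, and the kit does not mark strand. Around Cdkn1a only Cpne5 (-5.29, from 2.82 CPM to 0.0711 CPM) was called, and Srsf3, Trp53cor1 and Rab44 were not. Around Cdkn2c, Rnf11 (-0.89) and Dmrta2 (-2.22) fell and Faf1 (0.35) and 9630013D21Rik (4.69, at 0.768 CPM) rose. Beside Cdkn2d, Atg4d (0.38) and Kri1 (0.30) rose by less than Cdkn2d. Atg4d and Kri1 also overlap each other, with 19.3% and 33.6% of their exon bases in another gene. Ap1m2, a subunit of an epithelial adaptor complex, fell from 77.5 to 3.04 CPM (-4.67), and Slc44a2 was not called (0.01). Cdkn1c sat between the potassium channel gene Kcnq1 (-3.72), its antisense RNA Kcnq1ot1 (0.45), Slc22a18 (-0.63) and Phlda2 (-3.06).

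**Figure D5:**
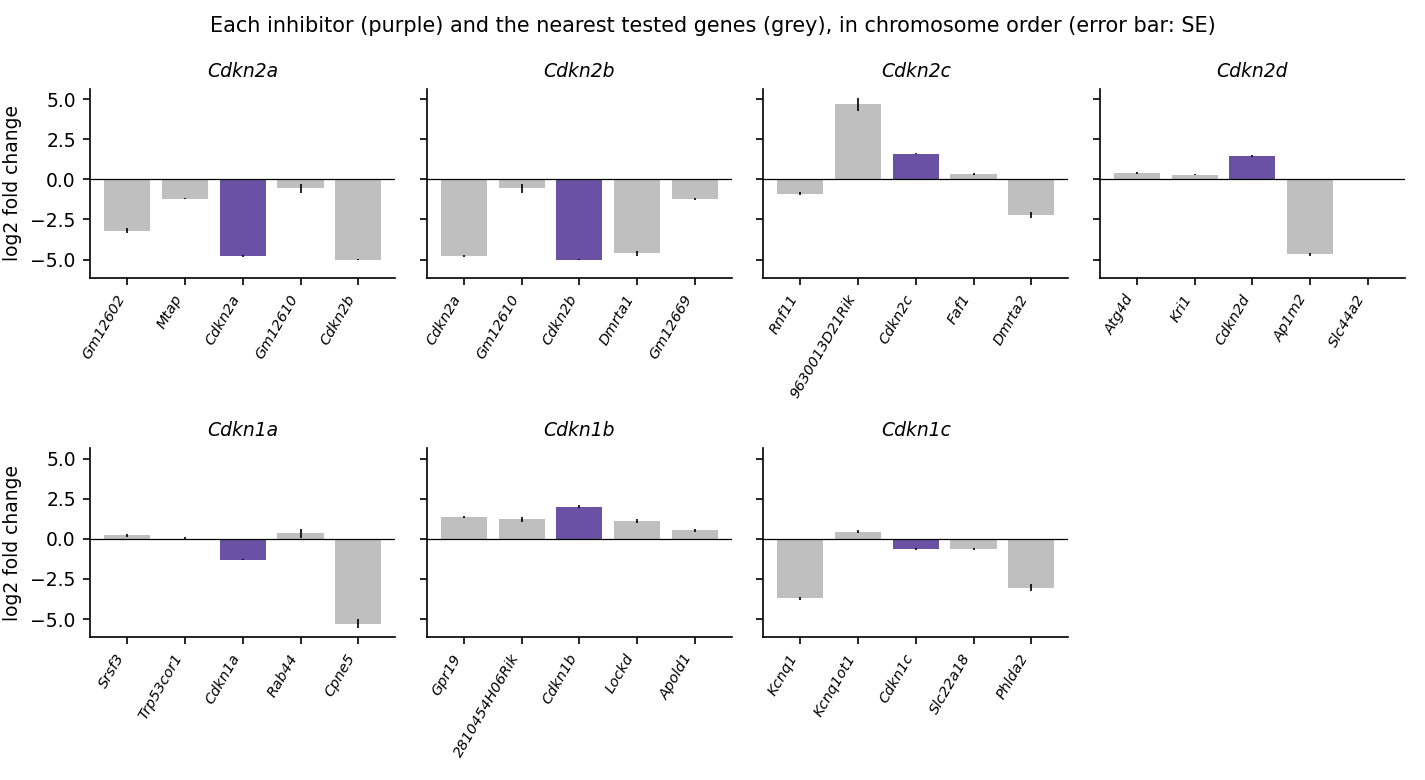
Log2 fold change (bars; error bars are SE from edgeR) of each inhibitor (purple) and of the 2 nearest tested genes on each side (grey), in chromosome order and not to distance. The 4 grey bars around Cdkn1b are all above 0, and 3 of the 4 around Cdkn1a are near 0.

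The genes most like each inhibitor were found by the distance between log2 CPM profiles over the 6 libraries, each centred on its own mean, among 12004 genes. With 6 libraries in 2 well separated groups, this distance mostly reads the size of the difference between the labels. Closest to Cdkn2a were the chemokine gene Cx3cl1 (distance 0.060) and the epithelial protease inhibitor gene Spint1 (0.103). Closest to Cdkn2b were Crybg1 (0.180) and Serinc2 (0.185). For Cdkn2c they were Sbf2 (0.043) and Ahi1 (0.049), and for Cdkn2d Lbh (0.029) and the lysosomal hexosaminidase gene Hexa (0.041). Cdkn1a lay close to Cables2 (0.072), Cdkn1b to Zfp367 (0.120) and Mindy2 (0.143), and Cdkn1c to Abhd2 (0.049) and Orai2 (0.058).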

How the data were processed

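PolyA RNA of 3 libraries labelled BAP1 KO and 3 labelled WT was measured. Per the labels' protocols, RNA was column-purified with DNase, prepared with TruSeq RNA v2, which does not mark strand, and read on a HiSeq4000. The submitters' processing notes name GSNAP and GRCm38; for versions, counting tool and annotation, the sources used here give nothing. The authors deposited a count of uniquely aligned reads and a normalized RPKM for each gene model, per the file headers. The deposited RPKM values, equal to the counts times 1 factor a library and 1 a gene where checked, served only to compare levels between genes.

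Gene IDs were matched to the RefSeq table of GRCm38.p6 (31049 of 36528, 85.0%), with 78 more from GENCODE; unmatched models held 1.05% of reads. Genes passing filterByExpr (minimum count 10, minimum total 15; 17121 genes) were tested with edgeR 4.0.16 in R 4.3.3 by glmQLFit and glmQLFTest on all 6 libraries, with TMM factors (0.975 to 1.03), no covariate, and a Benjamini-Hochberg adjusted p under 0.05. The common biological coefficient of variation was 0.0536. The SE is |log2 fold change| divided by the square root of F, and levels are TMM-scaled CPM. The procedure was tested on simulated data in which far fewer genes differed. That test does not cover a comparison with 81.5% of genes called, as here. Library pairs within a group were further apart than sampling noise. The chi-square per degree of freedom was 2.01 to 4.10 in the BAP1 KO-labelled set and 3.91 to 17.4 in the WT-labelled set. The widest pair was WT-labelled libraries 2 and 3. All 6 libraries were kept. Promoter windows are from RefSeq's table.

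The rule for names takes the 7 inhibitors and Bap1, up to 3 called genes of each list by absolute log2 fold change, any gene alone in its direction, the 2 nearest tested genes on each side, the 2 most similar profiles (average log2 CPM at least 1), and up to 2 markers a cell type. Cdk4, Ets2, Tbx3, Pmel (whose span holds Cdk2) and the markers Krt10 and Ivl were named outside it, after their values were seen. Some values that the rule would name are not reported here. The members follow their families and the lists follow roles, but both were chosen with earlier results of these data known. Alternatives were other scalings, filters, thresholds and lengths, DESeq2 1.42.0, limma-voom (limma 3.58.1), and leaving out each library; scaling by the authors' library factors was added after seeing the data.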

Additional observations from a re-analysis of the deposited data

How the results depend on the processing

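The 3 rises and 4 falls held under 16 of the 17 alternatives, other scalings, filters, tools and each left-out library included. The exception was glmTreat against a log2 fold change of 1: Cdkn1c (-0.64) was no longer called (edgeR adjusted p = 1.0), which left 3 falls; 1818 genes were then higher and 3417 lower, and 22 pathway genes rose and 22 fell. By list, higher and lower calls then went from 23 and 1 to 6 and 0 for S and G2/M phase genes, from 8 and 5 to 1 and 0 for pocket proteins and E2F factors, from 8 and 5 to 0 and 0 for inhibitor degradation, from 5 and 3 to 3 and 1 for immune markers, and from 6 and 3 to 3 and 1 for Schwann and glial markers. That test asks for a larger difference. Leaving out 1 library at a time gave log2 fold changes of -4.83 to -4.73 for Cdkn2a, -5.02 to -4.93 for Cdkn2b, 1.61 to 1.65 for Cdkn2c, 1.47 to 1.49 for Cdkn2d, -1.32 to -1.26 for Cdkn1a, 1.95 to 2.12 for Cdkn1b and -0.67 to -0.60 for Cdkn1c; between 6506 and 7117 genes were higher and between 6915 and 7260 lower. The difference in the log2 ratio of Cdkn2a to Cdkn2b was 0.10 to 0.27. The difference in INK4 share, -14.5 percentage points, was -20.8 with GENCODE exon lengths and -9.93 with no division by length. Among cell markers, the count higher for immune cells went from 5 to 2, and lower for endothelial and mural cells from 6 to 3, at a filter of 5 CPM. No paired analysis was possible because the labels give no replicate numbers (those used here follow accession order). With 3 libraries a group, the tests of shares and ratios cannot reach an exact permutation p below 0.1, and 142 to 174 reads set the precision of Cdkn2a in the BAP1 KO-labelled set.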

Other observations

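Other genes carry the inhibitors' names without belonging to either family. Of 5 such genes 2 rose and 3 fell (median log2 fold change -0.16). Cdkn3, which encodes a phosphatase that acts on CDK2, rose from 3.38 ± 0.423 to 7.96 ± 0.412 CPM (log2 1.24). Cdkn2aipnl fell from 42.8 ± 0.809 to 22.7 ± 1.04 CPM (-0.92). Cdk2ap1 rose by 0.57 on the log2 scale, but 56.1% of its 50-base stretches also occur in the transcript of Gm12184.

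Cdkn1c lies in an imprinted cluster, in which genes are expressed mainly from 1 parental copy. Of 8 listed genes of this region of chromosome 7, 7 were tested (Ascl2 was not), and 5 fell, 1 rose and 1 was not called (median -2.26). Over all tested genes 42.1% fell and 39.4% rose. The noncoding RNA H19 (chr7:142575530-142578146, not adjacent to Cdkn1c) fell from 12.4 ± 0.740 to 1.24 ± 0.185 CPM (-3.30). Kcnq1 (-3.72) and Phlda2 (-3.06) were the others with the largest falls, and Kcnq1ot1 alone rose (0.45). The fall of Cdkn1c itself, 0.64 on the log2 scale, was smaller than any of these 3. The counts do not separate the parental copies.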
